A study of Rattus norvegicus with 18 samples.

Results

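The neurofilament subunits *Nefl*, *Nefm*, *Nefh* and *Ina* were followed in 18 rat pups at P14, in libraries made from the PFC. They were found by gene symbol and are 4 of the 32623 genes listed in each pup. All 4 passed the filter on low counts that left 15703 genes for testing. The family was chosen by the levels, ratios and log2 fold changes that earlier results of these data gave for it, so its levels, ratios and changes are given here as a description. Adjusted p-values are printed only to place each gene among all genes tested. Condition and replicate number came from the sample titles, with 6 pups in each of 3 groups, all Sprague Dawley.

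Dams of the SAL pups were given saline. Dams of the PNO pups received 15 mg/kg/day of oxycodone (oxy), an opioid analgesic, by gavage from parturition to weaning, so that these pups met the drug through the breastmilk. Dams of the IUO pups started at 10 mg/kg/day, stayed there for 5 days and rose by 0.5 mg/kg/day over 10 days to 15 mg/kg/day before mating. Their dosing went on through pregnancy and nursing, so that IUO pups were exposed both before and after birth. The design therefore asks what exposure from birth does (PNO against SAL) and what dosing from before mating onward does (IUO against SAL). IUO against PNO asks what the dosing before birth adds, which includes the dosing of the dams before mating. The labels give neither the litter nor the sex of a pup, so the p-values measure the spread between pups, some of which may share a litter. Each group enters 2 of the 3 comparisons, which are therefore not independent of each other.

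Neurofilaments are the intermediate filaments of neurons and run in long parallel bundles through the axon. *Nefl* encodes the light subunit that forms the core of the filament. *Nefm* and *Nefh* encode the medium and heavy subunits, whose long, heavily phosphorylated tails project from the filament and are tied to the caliber of myelinated axons. *Ina* encodes alpha-internexin, a further subunit of neurofilaments in the central nervous system that appears early in neuronal development. *Nefh* is the late member, and its expression climbs as axons mature. In RefSeq's rat assembly GRCr8, which matched all 4 symbols, *Nefl* and *Nefm* lie on the same chromosome with 1 annotated gene and 0 protein-coding genes between them.

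The deposited expected counts summed to between 18381819 and 26084780 per pup, with a median of 22726306, and the ranges of the groups overlapped. Each of the 9 marker genes of cortical projection neurons was above 0 in every pup. Markers of other cells were also present, at levels that varied between pups. The 9 markers of striatal medium spiny neurons summed to 195 to 1635 CPM (counts scaled to the size of each library) in SAL, 236 to 1387 in PNO and 436 to 1990 in IUO, and the 6 choroid plexus markers to 3.94 to 544, 4.95 to 971 and 2.60 to 254.

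Levels of different genes can be compared only per transcript length, for which the TPM values served. The order was the same in each of the 18 pups, with *Nefl* first, then *Nefm*, *Ina* and *Nefh*. Mean TPM over all pups was 391 for *Nefl*, 171 for *Nefm*, 88.8 for *Ina* and 35.0 for *Nefh*. *Nefl* ranked 338 among all genes and stood above 97.85% of them, while *Nefh* ranked 4302 and stood above 72.6%. At this age the core subunit thus made up most of the neurofilament transcripts and the late, heavy subunit the least.

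The heavy subunit *Nefh* (ENSRNOG00000008716) was the member that differed most between groups. In CPM, which compares 1 gene between pups, the lowest, median and highest SAL pups had 54.8, 76.4 and 148. The PNO pups had 69.1, 106 and 143, and the IUO pups had 44.7, 56.1 and 73.4. All 6 IUO pups were below the median SAL pup and below the median PNO pup, and 5 of 6 were below every PNO pup. Group means were 88.6 ± 33.1 (SD, n = 6) in SAL, 109 ± 25.3 in PNO and 57.1 ± 9.49 in IUO, so that the IUO pups were both the lowest and the most alike. In TPM the IUO pups did not overlap with the PNO pups, since the highest IUO pup had 30.39 and the lowest PNO pup 30.88. In TPM, 0.529% of all genes lay wholly lower in IUO than in PNO. On the CPM scale the same groups overlapped by 1 pup on each side, and 0.86% of all genes were wholly lower. In bulk tissue, fewer cells of a type and less RNA per cell cannot be told apart.

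The medium subunit *Nefm* (ENSRNOG00000013916) had 243, 340 and 439 CPM in the lowest, median and highest SAL pups. The PNO pups had 304, 363 and 407, and the IUO pups 196, 273 and 321. The IUO pups sat low again, with 5 of 6 below every PNO pup, while SAL spanned the range of PNO on both sides. Means were 344 ± 75.2 (SD, n = 6) in SAL, 361 ± 37.5 in PNO and 270 ± 41.8 in IUO.

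For the light subunit *Nefl* (ENSRNOG00000013658), the lowest, median and highest values were 678, 884 and 951 CPM in SAL, 772, 900 and 1108 in PNO, and 604, 750 and 776 in IUO. Again 5 of 6 IUO pups were below every PNO pup and 2 of 6 below every SAL pup. Means were 845 ± 120 (SD, n = 6), 917 ± 127 and 713 ± 72.1 CPM.

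*Ina* (ENSRNOG00000020248), the subunit of early development, differed least of the 4 between IUO and the other groups. Its lowest, median and highest CPM were 207, 237 and 306 in SAL, 230, 275 and 306 in PNO, and 215, 241 and 258 in IUO. The 3 groups overlapped widely, with 2 of 6 IUO pups below every PNO pup and 0 of 6 below every SAL pup. Means were 250 ± 36.7 (SD, n = 6), 274 ± 24.9 and 239 ± 15.0.

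**Figure D1:**
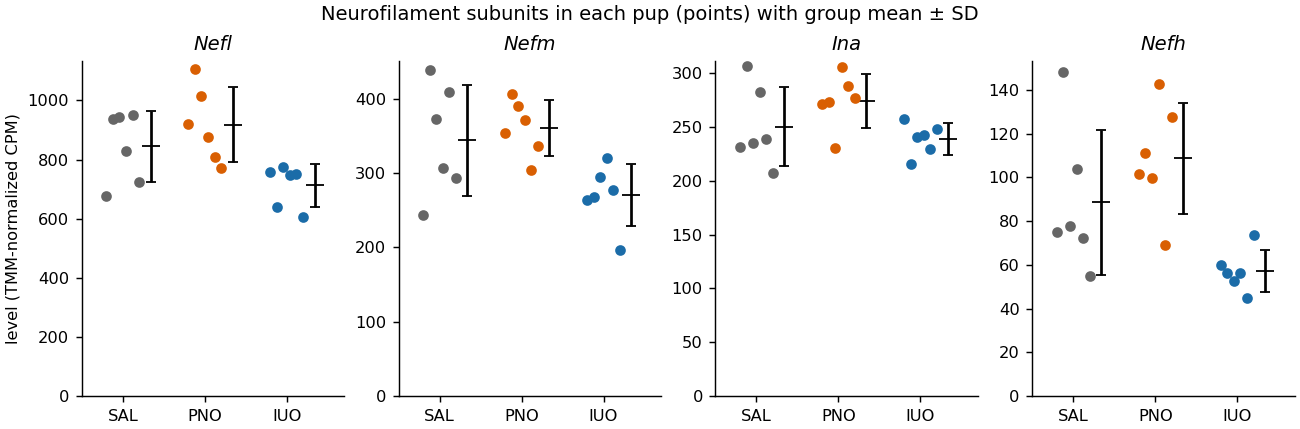
TMM-normalized CPM of each subunit (vertical axis, from 0) in every pup of the SAL, PNO and IUO groups, 1 point per pup, with the group mean and SD in black. The IUO pups form the lowest and tightest group for *Nefh*, at 44.7 to 73.4 CPM, whereas the groups overlap widely for *Ina*.

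Between IUO and PNO, the log2 fold change was −0.93 ± 0.21 (SE) for *Nefh*, which is a level of 0.525 times that of PNO. It was −0.42 ± 0.13 for *Nefm*, −0.36 ± 0.11 for *Nefl* and −0.20 ± 0.09 for *Ina*. In unnormalized counts *Nefl* was at −0.24 and *Ina* at −0.09. Once unnormalized counts over 1 SD from the group mean were left out, they were at −0.23 and −0.07. All 4 subunits were thus lower in IUO than in PNO, in the order heavy, medium, light and *Ina*, where 50.1% of all genes were below 0. *Nefh* was the 1 subunit at least 1.5-fold lower, as were 3.55% of all genes. The quasi-likelihood test of edgeR with Benjamini-Hochberg adjustment over all genes gave adjusted p-values of 0.07558, 0.1663, 0.1325 and 0.2969, so 0 of 4 were called at 0.05, where 10 genes or 0.0637% of all genes tested were. At an unadjusted p under 0.05, all 4 were lower, beside 9.14% of all genes (15.3% in either direction). The medians of the 4 subunits and of all genes were −0.39 and 0.00, and the middle 50% of all genes lay between −0.15 and 0.16.

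The call in this comparison depended on the test. DESeq2 called *Nefh* (adjusted p 0.002717) and *Nefl* (0.03711), beside 2.78% of all genes. limma-voom with sample quality weights also called *Nefh* (adjusted p 0.01042) and *Nefl* (0.04495), beside 12.9% of all genes. With only the 12 pups of these groups in the edgeR fit, *Nefh* had an adjusted p of 0.02717, beside 0.469% of all genes called. Without PNO replicate 5, the lowest PNO pup for *Nefh*, the edgeR adjusted p was 0.04237, beside 0.601% of all genes called. Leaving out each of the other 11 pups called 0 of the 4.

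Between IUO and SAL, the log2 fold changes ran in the same order of subunits and were smaller. They were −0.63 ± 0.21 (SE) for *Nefh*, −0.35 ± 0.13 for *Nefm*, −0.25 ± 0.11 for *Nefl* and −0.07 ± 0.09 for *Ina*. All 4 values were below 0, as were 52% of all genes, and *Nefh* was at least 1.5-fold lower, as were 2.5% of all genes. The edgeR quasi-likelihood test gave Benjamini-Hochberg adjusted p-values of 0.5015, 0.6106, 0.6739 and 0.9833. With it 0 of 4 subunits and 0% of all genes were called, and DESeq2 (0.312% of all genes) and limma-voom (0.274%) called 0 of 4 too. *Nefh*, *Nefm* and *Nefl* were lower at an unadjusted p under 0.05, as were 3.87% of all genes (6.88% in either direction). Part of these differences rested on SAL replicate 2, which had the highest *Nefh* of all 18 pups at 148 CPM. Without it the log2 fold change of *Nefh* was −0.43, that of *Ina* 0.00, and 1 subunit in place of 3 had an unadjusted p under 0.05, as did 5.6% of all genes in that fit. In unnormalized counts *Nefl* was at −0.21, and at −0.14 once counts over 1 SD from the group mean were left out of these.

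Between PNO and SAL, the log2 fold changes were 0.29 ± 0.20 (SE) for *Nefh*, 0.07 ± 0.13 for *Nefm*, 0.12 ± 0.11 for *Nefl* and 0.13 ± 0.09 for *Ina*. Each value was above 0, as were 50.8% of all genes. The edgeR adjusted p-values (Benjamini-Hochberg) were 0.9121 for *Nefh*, *Nefl* and *Ina* and 0.939 for *Nefm*. None of the 4 had an unadjusted p under 0.05, where 4.5% of all genes did, and 0% of all genes were called at an adjusted p of 0.05. DESeq2 (0.00637% of all genes) and limma-voom (0%) also called 0 of 4. With each pup left out in turn the log2 fold change lay between 0.18 and 0.50 for *Nefh* and between −0.015 and 0.15 for *Nefm*. It lay between 0.06 and 0.16 for *Nefl* and between 0.08 and 0.20 for *Ina*. The value of 0.50 for *Nefh* was the one without SAL replicate 2, where 2 subunits, *Nefh* and *Ina*, had an unadjusted p under 0.05, as did 4.95% of all genes in that fit. In unnormalized counts *Nefh* was at 0.21, and at 0.58 once counts over 1 SD from the group mean were left out of these. In TPM, mean *Nefm* was 183 ± 15.4 (SD, n = 6) in PNO and 185 ± 41.8 in SAL, so its sign depended on the unit.

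**Figure D2:**
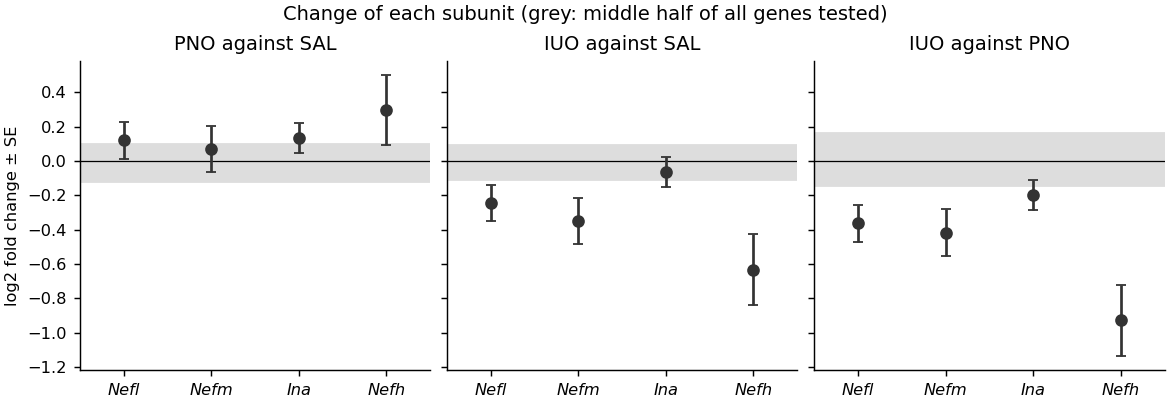
Log2 fold change of each subunit with its SE (vertical axis) in the 3 comparisons, with the range of the middle 50% of all genes tested in grey. In IUO against PNO the values run from −0.93 for *Nefh* to −0.20 for *Ina*, while in PNO against SAL they lie between 0.07 and 0.29.

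The make-up of the neurofilament transcripts was described by the share of each subunit in their summed TPM. That sum was 719 ± 111 TPM (SD, n = 6) in SAL, 736 ± 70.1 in PNO and 602 ± 68.6 in IUO. *Nefl* held 56.8%, 56.6% and 57.5% of it and *Nefm* 25.5%, 24.8% and 24.2%, with overlapping groups. *Nefh* held 5.18 ± 1.42% in SAL, 5.93 ± 1.41% in PNO and 4.12 ± 1.03% in IUO. *Ina* held 12.5 ± 1.58%, 12.6 ± 1.94% and 14.3 ± 1.48%, and each of the 6 IUO pups was above the median pup of each other group. On average the IUO pups therefore carried a smaller part of the late subunit and a larger part of the early one, with ranges that overlapped. The size of these differences rested in part on single pups. Without IUO replicate 6, at 17.1% *Ina*, the share of *Ina* was 1.08 percentage points higher in IUO than in PNO, in place of 1.65. Without SAL replicate 2, the share of *Nefh* differed between IUO and SAL by −0.64 points in place of −1.06.

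Ratios within a pup do not depend on how the libraries were scaled. The log2 ratio of *Nefh* to *Ina* averaged −1.30 ± 0.30 (SD, n = 6) in SAL, −1.11 ± 0.36 in PNO and −1.82 ± 0.21 in IUO. The difference between IUO and PNO was −0.71, with 4 of 6 IUO pups below every PNO pup, and that between IUO and SAL was −0.52, with 5 of 6 below every SAL pup. PNO replicate 5, at −1.80, was the PNO pup within the IUO range. For *Nefh* to *Nefl* the ratio averaged −3.50 ± 0.44, −3.29 ± 0.40 and −3.83 ± 0.36, and the groups overlapped more. The ratio of *Nefm* to *Nefl*, neighbouring protein-coding genes, averaged −1.16 ± 0.14, −1.19 ± 0.10 and −1.26 ± 0.16. That of *Ina* to *Nefl* averaged −2.20 ± 0.21, −2.18 ± 0.29 and −2.01 ± 0.16. Its difference of 0.16 between IUO and PNO was 0.08 without PNO replicate 3 and 0.11 without either PNO replicate 2 or IUO replicate 6.

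**Figure D3:**
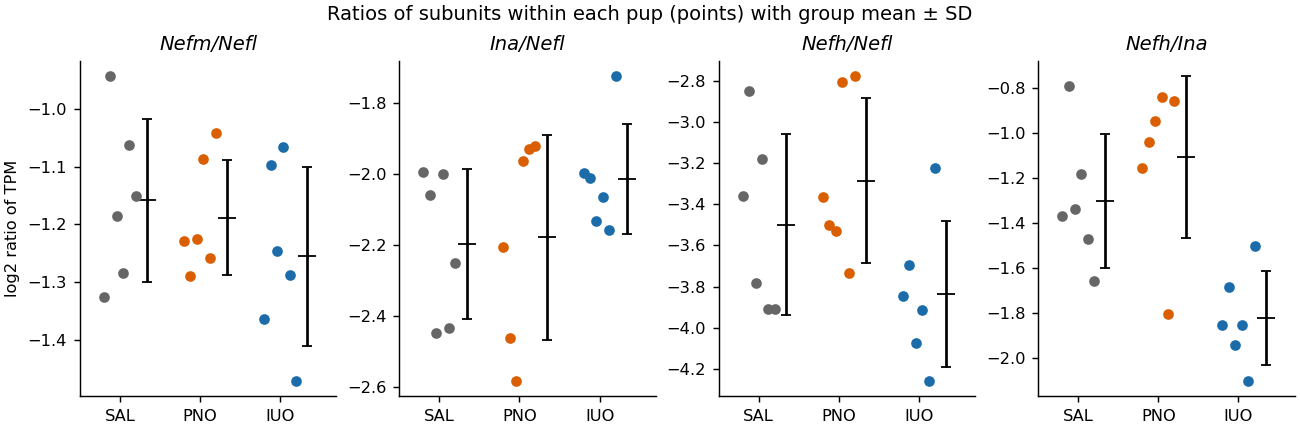
Log2 ratios of TPM between pairs of subunits (vertical axis) in every pup, 1 point per pup, with group mean and SD in black. The ratio of *Nefh* to *Ina* lies between −2.10 and −1.50 in IUO, below 5 of the 6 PNO pups, while the 3 groups overlap for *Nefm* to *Nefl*.

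Over the 18 pups *Nefm* and *Nefl* moved as a pair. The Pearson r of their log2 CPM was 0.91, and 0.85 after the group means were removed, and each was the closest of all genes tested to the other. *Nefh* ran with *Ina* at 0.75 (0.70 with group means removed), but with *Nefm* at 0.58 (0.24) and with *Nefl* at 0.55 (0.14). The genes closest to *Nefh* were *Leng1* at 0.93, *Dnajb2*, which encodes a neuronal co-chaperone, at 0.92 and *Phlda3* at 0.92. Those closest to *Ina* were *Glb1*, encoding lysosomal beta-galactosidase, at 0.90, *Cabp7* at 0.90 and the integrin gene *Itga3* at 0.87. After its partner, *Nefm* was closest to *Cplx1*, encoding the presynaptic protein complexin 1, at 0.87, and *Nefl* to *Mtfp1* at 0.88. *Mospd1* came next for both, at 0.81 with *Nefm* and 0.88 with *Nefl*. These r are descriptions over pups that share groups and a sequencing run.

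*Nefh* also varied with markers of several cell types, those of myelin first. The 9 markers of myelinating oligodendrocytes, each above 0 in every pup, summed to 1741 to 9378 CPM in SAL (median 6389), 2953 to 15050 in PNO (median 10414) and 2223 to 5679 in IUO (median 3028). Their median log2 fold change was 0.75 in PNO and −0.61 in IUO relative to SAL. Relative to PNO it was −1.39 in IUO, where 9 of 9 were lower at an unadjusted p under 0.05, beside 9.14% of all genes, and 0 of 9 at an adjusted one in edgeR. The signs were those of the subunits in each comparison. The mean log2 CPM of these genes ran with *Nefh* at Pearson r = 0.78 and Spearman rho = 0.81 over 18 pups, which includes the difference between the groups. With the group means removed r was 0.62, and without the 2 pups farthest from the median myelin level 0.79. Within groups r was 0.75 in SAL, 0.57 in PNO and 0.34 in IUO, with 6 pups each. PNO replicate 5 had the fewest myelin counts and the least *Nefh* of its group, and SAL replicate 6 those of SAL.

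Other marker lists were compared with *Nefh* as well. With the 9 cortical projection neuron markers its r was −0.65 (−0.52 with group means removed), and −0.34, −0.85 and −0.58 within SAL, PNO and IUO. With the 6 markers of thalamic and other subcortical excitatory neurons r was 0.53 (0.60 with group means removed) and 0.65 without the 2 farthest pups. Within SAL, PNO and IUO it was 0.69, 0.25 and 0.89. IUO replicate 6 stood apart, at 570 CPM of these markers where the other IUO pups had 172 to 216. It also had the most *Nefh* of IUO, and no r within IUO was computed without it. Weaker relations were seen with the interneuron markers, at 0.41 (0.31 with group means removed, and −0.40 within IUO), and with the striatal markers, at −0.39 (−0.16 with group means removed, and 0.05 within IUO). Pups with more *Nefh* thus tended to have a higher mean log2 CPM of the myelin and thalamic markers and a lower one of the projection neuron markers. Summed, the projection neuron markers averaged 1788 ± 452 CPM (SD, n = 6) in SAL, 1910 ± 385 in PNO and 1881 ± 342 in IUO. In IUO against PNO 7 of these 9 were above 0 and 2 below. Those with an unadjusted edgeR p under 0.05 were *Bcl11b* at 1.00 and *Foxp2* at 0.78, where 6.14% of all genes were higher.

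The other subunits followed the myelin genes at r = 0.52 for *Nefm*, 0.56 for *Nefl* and 0.47 for *Ina*. With the group means removed these were 0.25, 0.27 and 0.24. With the 9 cortical interneuron markers, *Nefm* and *Nefl* stood at 0.62 and 0.60 (0.58 and 0.58 with group means removed). Of these 9 markers, 1 had a count of 0 in at least 1 pup. Without the 2 pups farthest from the median of each list, *Nefm* and *Nefl* stood at 0.38 and 0.29 with the interneuron markers. With the myelin genes they then stood at 0.54 and 0.53. The pups left out differed between the 2 lists, so these r do not rank the lists. The thalamic markers ran differently with the subunits. With group means removed, r was −0.51 for *Nefm* and −0.54 for *Nefl*, against 0.60 for *Nefh* and 0.53 for *Ina*. Within SAL, PNO and IUO it was −0.22, −0.60 and −0.91 for *Nefm* and −0.16, −0.79 and −0.89 for *Nefl*. IUO replicate 6, far above the other IUO pups in thalamic markers, had the least *Nefm* and *Nefl* of IUO. No r within IUO was computed without this pup. Over all 18 pups r was −0.27 for *Nefm* and −0.28 for *Nefl*. Without the 2 farthest pups it was 0.14 and 0.00, so the pooled negative relation rested on those pups. *Ina* stood at −0.54 with the striatal markers over all pups. Over all 18 pups, the 16 relations of the subunits to choroid plexus, astrocyte, microglia and vessel markers lay between −0.42 and 0.36. Within groups some were farther from 0, such as 0.83 for *Nefh* and −0.70 for *Nefl* with the choroid plexus markers in IUO. The 36 relations were chosen after the values had been seen and are given without a test. The part of these cell types in the lower *Nefh* of IUO pups was not tested.

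**Figure D4:**
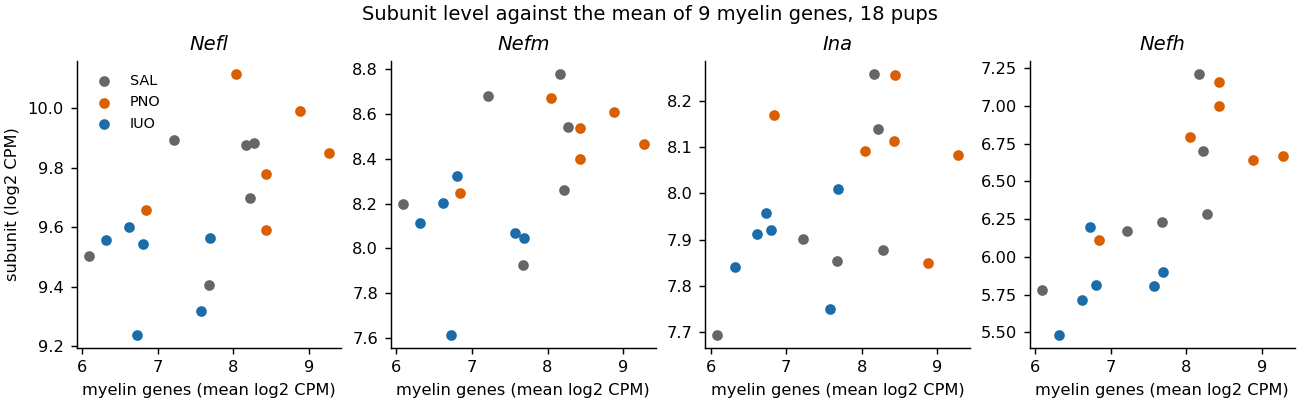
Log2 CPM of each subunit (vertical axis) against the mean log2 CPM of 9 myelin genes (horizontal axis) in 18 pups colored by group. *Nefh* climbs with the myelin genes over all pups at r = 0.78, and the IUO pups lie toward the lower left.

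*Pvalb*, the marker of fast-spiking interneurons, whose axons are often myelinated, was 4.43 ± 1.26 CPM (SD, n = 6) in IUO, 22.4 ± 8.69 in PNO and 13.0 ± 8.68 in SAL. For IUO against PNO its log2 fold change was −2.34 (edgeR adjusted p 0.03561), and it was the only gene of the marker lists called. The 9 interneuron markers as a list went both ways, with 4 above 0 and 5 below and a median of −0.14, and *Kcnc1*, a potassium channel gene of fast-spiking cells, at −0.61. Their summed level was 853 ± 144 CPM in IUO and 888 ± 138 in PNO. In the same comparison the median log2 fold change was 0.85 for the 9 striatal markers and −1.26 for the 6 choroid plexus markers, of which 0 had an unadjusted p under 0.05. Without PNO replicate 1 the choroid plexus median was −0.07, and with each pup left out the striatal one lay between 0.58 and 1.25. The part of these cells in the subunit values was not tested.

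Genes that work on or beside neurofilaments were read in 6 lists, and 0 genes of any of them were called at an adjusted p under 0.05 in any comparison with edgeR. In IUO against PNO, 6.14% of all genes were higher and 9.14% lower at an unadjusted p under 0.05. Of 13 other intermediate filament genes tested, 3 were higher and 3 lower by that measure, with a median log2 fold change of −0.02. *Nes*, the nestin of neural progenitors, was at 0.51 and the nuclear lamin gene *Lmnb2* at 0.42, while *Gfap*, the filament of astrocytes, was at −0.36. *Prph*, the peripherin that joins neurofilaments in peripheral axons, was at −1.07 with means of 12.6 ± 2.87 CPM in IUO and 26.6 ± 16.9 in PNO, and it was picked after its values were seen. The family had no single direction.

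Of the 22 microtubule genes, 7 were higher and 1 lower in IUO than in PNO at an unadjusted p under 0.05, and their median was 0.22. *Tubb2b*, a tubulin of immature neurons, stood at 0.48 and *Gap43*, encoding the growth cone protein, at 0.29, whereas *Tubb4a*, a tubulin abundant in oligodendrocytes, stood at −0.32. The sign of the list's median was opposite to that of the subunits. In IUO against SAL 2 of the 22 were higher, among them *Gap43* at 0.23, where 3.02% of all genes were. With a pup left out, *Gap43* had an unadjusted edgeR p under 0.05 in 3 of 12 fits. The count in either direction lay between 0 and 5 over those fits and between 0 and 11 under the other settings. In PNO against SAL 1 was lower, *Dcx*, encoding the doublecortin of young neurons, at −0.80, where 2.6% of all genes were. Without SAL replicate 6 the value for *Dcx* was −0.27.

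Of the 15 genes of the node of Ranvier and of the contact between axon and glia, 5 were lower and 0 higher in IUO than in PNO by that measure, although their median was 0.13 (0.00 without IUO replicate 5). *Cntnap1*, encoding the paranodal protein Caspr, had 121 ± 14.0 CPM (SD, n = 6) in IUO, 167 ± 19.9 in PNO and 165 ± 24.5 in SAL. Its log2 fold change was −0.46 against PNO (edgeR adjusted p 0.07679) and −0.44 against SAL (adjusted p 0.235). The sodium channel gene *Scn1a* stood at −0.27 against PNO. In IUO against SAL 3 of the 15 were lower, where 3.87% of all genes were, with the potassium channel gene *Kcna2* at −0.35. The count in either direction lay between 1 and 3 with a pup left out and between 1 and 6 under the other settings.

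The remaining lists hold genes that act on the subunits after transcription, and their counts were read against the 15.3% of all genes with an unadjusted p under 0.05 in IUO against PNO. Of 21 genes for neurofilament kinases and phosphatases, 1 was lower in IUO than in PNO and 0 were higher at an unadjusted p under 0.05, and the median was 0.03. Of 17 genes for turnover, chaperones and proteins that bind neurofilament messengers, 1 was higher, *Tardbp* (encoding TDP-43) at 0.20, and 2 were lower, the small heat shock gene *Cryab* at −0.60 and the co-chaperone gene *Bag3* at −0.37, so that 3 of 17 passed, a share near that of all genes. Of 20 genes for axonal transport and cross-linkers, such as kinesins and spectrins, 0 passed in either direction in IUO against PNO, and the median was 0.07.

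**Figure D5:**
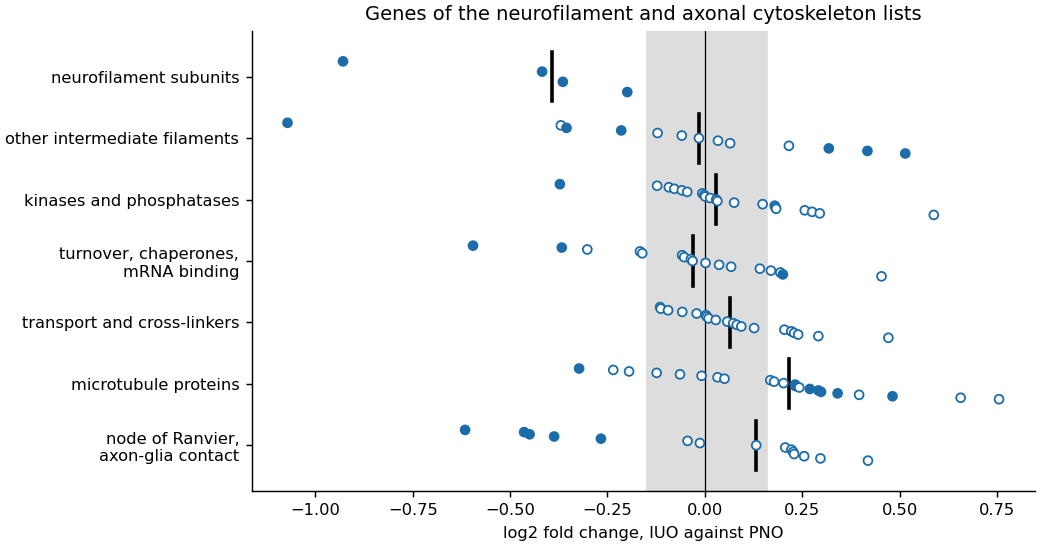
Log2 fold change between IUO and PNO (horizontal axis) for each tested gene of the subunits and of the 6 related lists, filled where the unadjusted p was under 0.05, with the list median as a black bar and the middle 50% of all genes in grey. The subunits have a median of −0.39 and the microtubule genes one of 0.22, and the other medians lie between −0.03 and 0.13.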

How the data were processed

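The authors deposited 1 table per pup from single-read TruSeq libraries of 18 PFC samples, with an expected count per gene, estimated where reads match several genes and not normalized. The TPM values deposited by the authors are scaled to length and to a fixed total per pup, and the FPKM values deposited by the authors to length and fragments. The aligner, quantification program, annotation release and genome build are not given in the sources used here. The subunits and gene lists were chosen with earlier results of these data known.

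Rounded expected counts went into edgeR 4.0.16 under R 4.3.3 (TMM, filterByExpr, quasi-likelihood, 1 model over 3 groups, two-sided, Benjamini-Hochberg over 15703 genes, threshold 0.05). CPM are TMM-normalized, with a prior count of 2 on the log2 scale. Replicate numbers were not used to pair the pups in this model. No pups of a group had identical values. TPM served for levels between genes, shares and ratios. FPKM in place of TPM gives the same shares within a pup by construction, so it was no separate check. The other alternatives were other scalings, filters and samples, a replicate block, DESeq2 1.42.0, limma-voom (limma 3.58.1) and each pup left out. A further one left out unnormalized counts over 1 SD from the group mean and took the log2 ratio of means, without a test. Named genes are the 4 subunits, at most 3 genes with the smallest p per list and comparison (unadjusted p under 0.05), and the 3 genes closest to each subunit by Pearson r over 18 pups. *Prph* was named outside this rule, after its values were seen. *Iffo2* and *Pecam1* of the lists were not matched. Some other list members are counted but not reported by name. The edgeR steps were tested on simulated data. Relations to marker lists were computed in Python 3.11.15 with numpy 2.4.6. The lowest subunit count in any pup was 1114 (*Nefh*), and the spread between pups, not counting error, set the precision.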

Additional observations from a re-analysis of the deposited data

Results flagged for a closer look

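In 4 of the 33 groups of 6 values checked, 1 pup stood far from the other 5 relative to the range of its group, which chance gives in about 1 in 20 groups. In SAL, replicate 2 had a log2 TPM of 5.99 for *Nefh*, with the nearest pup at 5.20, and of 6.78 for *Ina*, with the nearest at 6.44. In IUO, replicate 2 had a log2 TPM of 6.20 for *Ina*, below the nearest pup at 6.41. The log2 ratio of *Ina* to *Nefl* was −1.72 in IUO replicate 6, above the nearest pup at −2.00. On the CPM scale none of the 4 subunits had such a pup in any group.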

How the results depend on the processing

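For IUO against PNO, the log2 fold change of *Nefh* crossed the threshold of 0.05 at −0.93 with DESeq2, at −1.02 with limma-voom and at −0.93 with only the 12 pups compared, and that of *Nefl* at −0.37 with DESeq2 and −0.31 with limma-voom. The number of subunits called was 2, 2 and 1 under these and 0 in edgeR. With each pup left out in turn it lay between 0 and 1, and that of *Nefh* between −1.04 and −0.84, called without PNO replicate 5. The cause was not tested. All-gene calls were 10 in edgeR, 436 with DESeq2, 2028 with limma-voom, 72 with 12 pups, 19 with total counts only, 0 with unnormalized counts and 1 to 95 with a pup left out.

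Signs turned where a value was near 0. For PNO against SAL, *Nefm* was at −0.024 with unnormalized counts and between −0.015 and 0.15 with a pup left out, below 0 without SAL replicate 1. For IUO against SAL, *Ina* was between −0.12 and 0.00021 with a pup left out, above 0 without SAL replicate 2. In unnormalized counts it was −0.041, and 0.012 once counts over 1 SD from the group mean were left out of these. Unnormalized counts moved the median of all genes by 0.11 for IUO against PNO, and 1 subunit in place of 4 then had an unadjusted p under 0.05, as did 10.3% of all genes. For PNO against SAL they gave 0.03 for *Nefl* and 0.05 for *Ina*.

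Of 378 list counts at an unadjusted p under 0.05 under the alternatives, 97 differed by over 1.5 times from the value reported. For IUO against PNO the microtubule count of 8 lay between 4 and 12 with a pup left out and between 7 and 16 under the other settings, and the node count of 5 between 4 and 5 and between 2 and 8. With a pup left out the microtubule median lay between 0.16 and 0.27 and the node median between 0.00 and 0.22.

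Replicate numbers are shared by the groups. Deviations of pups with the same number had a mean r of 0.23 for PNO and SAL, −0.03 for IUO and SAL and 0.06 for IUO and PNO. For PNO and SAL, r was over 0.1 in 4 of 6 pairs. Of the 18 pups, 7 ran best with their own number. The labels name no pairing, and whether the numbers carry a shared factor was not tested. With a replicate block the log2 fold change of *Nefh* was −0.90 for IUO against PNO (edgeR adjusted p 0.06735), 6 genes in all were called, and no call of a subunit differed.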
